A study of Mus musculus with 12 samples.

Results

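The MiT-TFE genes encode the transcription factors that set the supply of lysosomes, with the proteins that hold these factors at the lysosome surface. The 8 genes described here were Mitf, Tfeb, Tfe3 and Tfec, which encode the factors, Flcn, Fnip1 and Fnip2, which encode folliculin and its partners, and Rragd, which encodes the small GTPase RagD. They were picked by symbol out of 22947 genes measured, by a rule that uses no values but with earlier results of these data known, and 7 of the 8 were expressed enough to enter the test; Rragd was below the filter.

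MITF, TFEB, TFE3 and TFEC are basic helix-loop-helix leucine zipper proteins that bind DNA as dimers with each other. Their best-known site is the CLEAR motif, an extended E-box found near genes for lysosomal enzymes and the proton pump of the lysosome. In fed cells, RagC or RagD brings TFEB and TFE3 to mTORC1, which phosphorylates them and keeps them in the cytoplasm, and folliculin with FNIP1 or FNIP2 is the GTPase-activating protein that readies these Rags. In starved or stressed cells, calcineurin, activated by calcium from the lysosomal channel TRPML1, removes the phosphates and the factors enter the nucleus. All of this regulation acts on proteins, whereas the values here are of RNA. In fat depots, lysosomes are most abundant in macrophages, and MITF and TFEC are known from the myeloid lineage.

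RNA of whole epididymal white adipose tissue (eWAT) was measured in male C57BL/6J mice of 21 weeks of age, with 3 mice, each 1 library, in each of 4 groups. From 5 weeks of age and for 16 weeks, the mice ate a normal diet (ND), a high-fat diet (HFD), or the same high-fat diet with a supplement, which was an ethanol extract of chrysanthemum leaf at 1.5% by weight (CLE) or the flavonoid luteolin at 0.003% (LU). All mice were housed singly and carried no engineered allele. All had been fasted before they were anesthetized at the end, so no group was measured in the fed state. The sequenced mice were chosen as representative of larger groups, by criteria not given in the sources used here. Values are FPKM, read fragments scaled to transcript length and to library size, summed over the transcripts of a gene, so levels can be compared between genes.

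The libraries were close to each other in scale, with gene totals of 435095 to 455040 FPKM, but the depth of each library is unknown because read counts were not used here and FPKM does not give them. Adipocyte genes led the tissue, with Fabp4, a fatty acid carrier, at group means of 11000 to 19700 FPKM. The HFD group stood apart in its cell type markers: the 10 macrophage markers summed to 2310 to 2670 FPKM per library in HFD, against 345 to 511 in ND, 586 to 872 in CLE and 921 to 1060 in LU, and no marker was at 0. The 10 adipocyte markers summed to 16900 to 19000 FPKM in HFD and to 24600 or more in every other library. In whole tissue, fewer cells of a type and less RNA per cell cannot be told apart. The letter R in the names of 4 libraries, none of them HFD, went with no gene at an adjusted p under 0.05 in limma (525 at an unadjusted p under 0.05) and with 0 of the 7 genes tested at an unadjusted p under 0.05. The column headers of the same 4 libraries, and of no other library used, also carry a shared number, whose meaning is not given.

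All 8 genes lie on the mouse reference GRCm38 as protein-coding genes. Their promoter windows, 250 bases before to 50 bases after a RefSeq start site on GRCm38.p6, number 13 for the 8 genes, since Mitf and Tfeb have 3 each and Tfe3 has 2. The windows are given for Mitf, whose FPKM lay mostly in transcripts from 1 of its 3 starts, for Fnip2, the gene with the largest differences below, and for Fnip1, the 1 gene of the 8 whose window held an E-box of the CLEAR type. Capitals mark that E-box, and the other windows hold none.
Mitf, most upstream start, chr6:97806808-97807107, plus strand: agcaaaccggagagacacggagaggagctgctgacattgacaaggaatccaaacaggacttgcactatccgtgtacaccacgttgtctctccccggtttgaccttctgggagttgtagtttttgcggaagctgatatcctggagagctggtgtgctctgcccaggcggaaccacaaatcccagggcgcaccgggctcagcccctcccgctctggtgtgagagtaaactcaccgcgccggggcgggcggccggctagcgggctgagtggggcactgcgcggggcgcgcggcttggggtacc
Mitf, most downstream start, that of the melanocyte form, chr6:97991533-97991832, plus strand: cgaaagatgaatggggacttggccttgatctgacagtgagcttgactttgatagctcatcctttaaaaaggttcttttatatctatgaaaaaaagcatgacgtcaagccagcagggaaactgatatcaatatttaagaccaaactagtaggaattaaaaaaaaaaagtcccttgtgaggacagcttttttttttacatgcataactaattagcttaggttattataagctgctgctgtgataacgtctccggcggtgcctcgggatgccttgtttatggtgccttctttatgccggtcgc
Fnip2, chr3:79567630-79567929, minus strand: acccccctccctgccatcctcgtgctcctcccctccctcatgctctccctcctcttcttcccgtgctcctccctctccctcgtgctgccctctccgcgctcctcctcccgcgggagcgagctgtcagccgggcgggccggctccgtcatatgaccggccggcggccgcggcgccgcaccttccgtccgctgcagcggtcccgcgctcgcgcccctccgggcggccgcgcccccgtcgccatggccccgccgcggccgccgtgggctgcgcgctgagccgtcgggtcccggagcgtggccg
Fnip1, chr11:54437929-54438228, plus strand: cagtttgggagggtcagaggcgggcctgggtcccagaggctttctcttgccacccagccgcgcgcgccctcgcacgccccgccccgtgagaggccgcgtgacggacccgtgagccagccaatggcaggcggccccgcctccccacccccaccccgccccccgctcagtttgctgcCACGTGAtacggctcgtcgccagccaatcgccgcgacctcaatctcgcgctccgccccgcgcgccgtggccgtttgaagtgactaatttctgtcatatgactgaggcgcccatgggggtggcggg

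Both strands were searched for CACGTG, for TCACGTG, which contains it, and for TCATGTG. Of 32851 RefSeq promoter windows of this length, 7.15% held CACGTG, 3.77% held TCACGTG and 3.77% held TCATGTG. Among the 13 windows of the 8 genes, 1 held CACGTG and TCACGTG, at the same place in Fnip1, where it reads CACGTGA on the plus strand and begins at position -75 from the start site. None of the 13 held TCATGTG. A match in these letters is no measurement of binding.

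**Figure D1:**
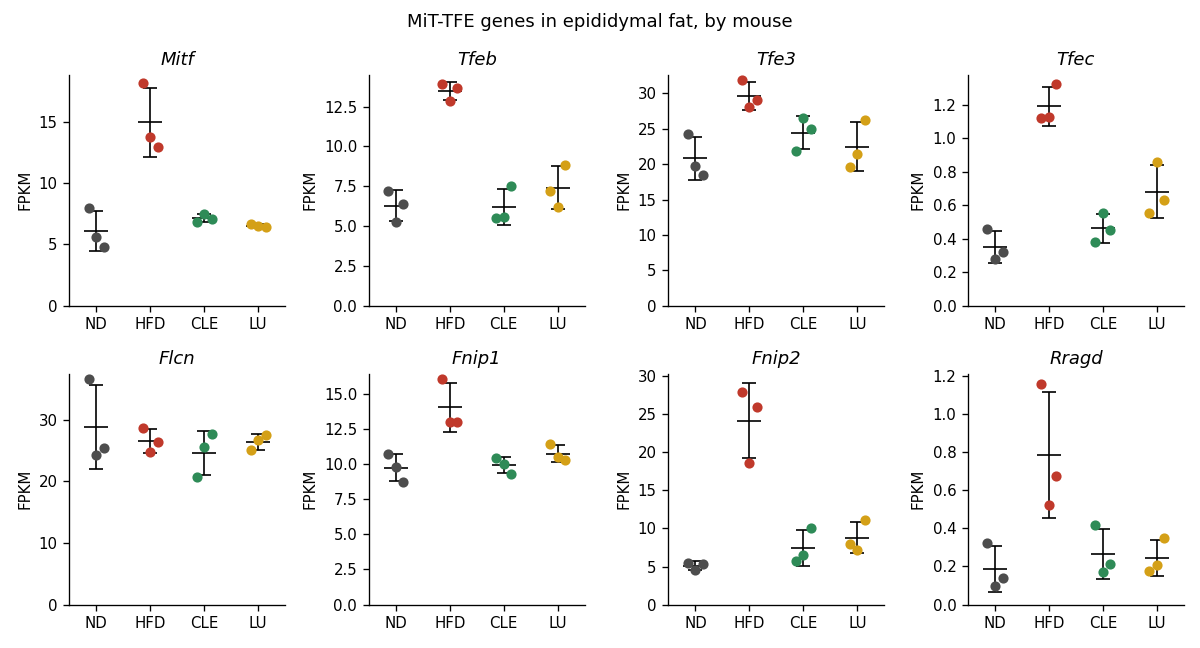
FPKM of each of the 8 genes (vertical axes, each from 0) in the 3 mice of each group, with the group mean and SD as bars. In 7 of the panels the 3 HFD mice sit above every other mouse, and in the Flcn panel the 4 groups overlap.

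Among the 4 transcription factors, Tfe3 was the most abundant in every library and Tfec the least. Mitf and Tfeb were close to each other in each group, and both more than doubled in HFD relative to ND. In limma on log2(FPKM + 1), with Benjamini-Hochberg (BH) adjustment over 12775 genes, calls required both an adjusted p under 0.05 and more than a 1.5-fold change. By this rule Mitf, Tfeb and Fnip2 were higher in HFD than in ND, 3 of the 6 genes left when Tfec is set aside, where 14.9% of all genes tested were called higher and 25.6% in either direction. Tfec was called higher too, but it passed the filter on low values through the HFD libraries alone and is not counted.

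Mitf (chr6:97807052-98021349, plus strand) encodes the factor that gives pigment cells, mast cells and osteoclasts their gene programs. Its level was 7.95, 5.62 and 4.76 FPKM in the ND mice, 18.16, 13.8 and 12.92 in the HFD mice, 6.86, 7.52 and 7.09 in the CLE mice, and 6.64, 6.51 and 6.39 in the LU mice. All HFD mice were above every other mouse. ND, CLE and LU together ran from 4.76 to 7.95 FPKM, and both ends were ND mice. The group means were 6.11 ± 1.65 in ND, 14.96 ± 2.81 in HFD, 7.16 ± 0.34 in CLE and 6.52 ± 0.12 in LU (SD, n = 3 each). The log2 fold change was 1.18 (SE 0.15, limma adjusted p = 8.1e-05) in HFD against ND, -0.96 (SE 0.15, limma adjusted p = 0.00074) in CLE against HFD and -1.07 (SE 0.15, limma adjusted p = 0.00064) in LU against HFD.

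The rise of Mitf lay in the transcripts that begin at its most upstream start. These transcripts held 83.3% to 100% of the Mitf FPKM of a library, with a median of 99.9%, and their group means were 5.80 FPKM in ND, 14.2 in HFD, 7.15 in CLE and 6.32 in LU. The melanocyte start gave 0 FPKM in every HFD, CLE and LU library and 0.792 FPKM in 1 ND library, mouse 3, which was 14.1% of its Mitf. The 6 melanocyte markers were all below the filter, with sums of 0.727 to 2.18 FPKM over the 12 libraries. The RefSeq start between these, at 97929799, held 0.593 FPKM in LU mouse 2, 8.93% of its Mitf, and at most 0.0843 FPKM in any other library. A start at 97940918 on chromosome 6, inside the gene, held 1.9 FPKM in HFD mouse 12 and at most 0.338 FPKM in any other library. Cufflinks divides reads among overlapping transcripts by a model, so these shares are estimates, and the error of each share is unknown here.

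Tfeb (chr17:47737030-47792419, plus strand) encodes the best-studied activator of lysosome and autophagy genes. It measured 7.21, 5.28 and 6.38 FPKM in ND, 13.94, 12.88 and 13.67 in HFD, 5.53, 5.55 and 7.49 in CLE, and 7.22, 6.18 and 8.83 in LU. The 3 HFD mice were tightly grouped and above all others, while the ranges of ND, CLE and LU overlapped. Its log2 fold change was 1.00 (SE 0.14, limma adjusted p = 0.00015) in HFD against ND, -1.02 (SE 0.14, limma adjusted p = 0.00029) in CLE against HFD and -0.80 (SE 0.14, limma adjusted p = 0.0022) in LU against HFD. Transcripts from the most upstream cluster of starts held 47.2% to 88.7% of Tfeb FPKM per library. These transcripts had means of 4.35 FPKM in ND, 8.24 in HFD, 4.62 in CLE and 5.54 in LU, highest in HFD as the gene was.

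Tfe3 (chrX:7762560-7775202, plus strand), which overlaps in function with Tfeb, was not called in any comparison. Its level was 24.31, 19.72 and 18.52 FPKM in ND, 31.92, 28.1 and 29.02 in HFD, 21.9, 26.51 and 24.94 in CLE, and 19.65, 21.44 and 26.29 in LU. By the gene sum, HFD was again above every other mouse, with smaller gaps than for Mitf or Tfeb. The most abundant transcript held 30.4% to 52.2% of that sum per library. Its means were 8.9 FPKM in ND, 10.2 in HFD, 10.3 in CLE and 10.4 in LU. The log2 fold change of the sum in HFD against ND was 0.50 (SE 0.13, limma adjusted p = 0.0073), below the fold threshold of 1.5. Over the alternative runs it ranged from 0.18 to 0.61. CLE against HFD gave -0.27 (SE 0.13, limma adjusted p = 0.13) and LU against HFD -0.39 (SE 0.13, limma adjusted p = 0.041), so neither was called.

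Tfec (chr6:16833373-16898441, minus strand), the member found in macrophages and other myeloid cells, was the scarcest. It measured 0.46, 0.28 and 0.32 FPKM in ND, 1.12, 1.12 and 1.32 in HFD, 0.38, 0.55 and 0.45 in CLE, and 0.56, 0.86 and 0.63 in LU. Only the 3 HFD libraries reached the 1 FPKM that the filter asked for in 3 libraries, so Tfec entered the test through the group in which it was highest and had to differ there. Its mean in HFD was 3.38 times that in ND, while the log2(FPKM + 1) scale, which shrinks changes of scarce genes, gave 0.70 (SE 0.09, limma adjusted p = 9.4e-05). On the same scale CLE against HFD was -0.58 (SE 0.09, limma adjusted p = 0.00068), a hair under the fold threshold. LU against HFD was -0.39 (SE 0.09, limma adjusted p = 0.011).

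The makeup of the factor family was different in the HFD mice. The 4 factors summed to 33.6 ± 5.50 FPKM in ND, 59.3 ± 5.07 in HFD, 38.3 ± 3.11 in CLE and 37.1 ± 4.42 in LU (SD, n = 3 each). Tfe3 made up 60.9% to 63.8% of this sum in ND, 49.0% to 51.0% in HFD, 62.4% to 66.1% in CLE and 57.7% to 62.4% in LU, so the HFD mice were below all others. The share of Mitf was 22.7% to 27.9% in HFD and at most 19.9% in any other mouse. Tfeb held 21.4% to 24.0% in HFD, 17.1% to 21.3% in ND, 13.8% to 18.7% in CLE and 17.7% to 21.2% in LU. These shares rest on the same values as the tests above and were not tested further. In the gene sums, non-coding transcripts held 9.96% to 24.0% of Tfe3 and up to 18.4% of Tfeb per library.

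**Figure D2:**
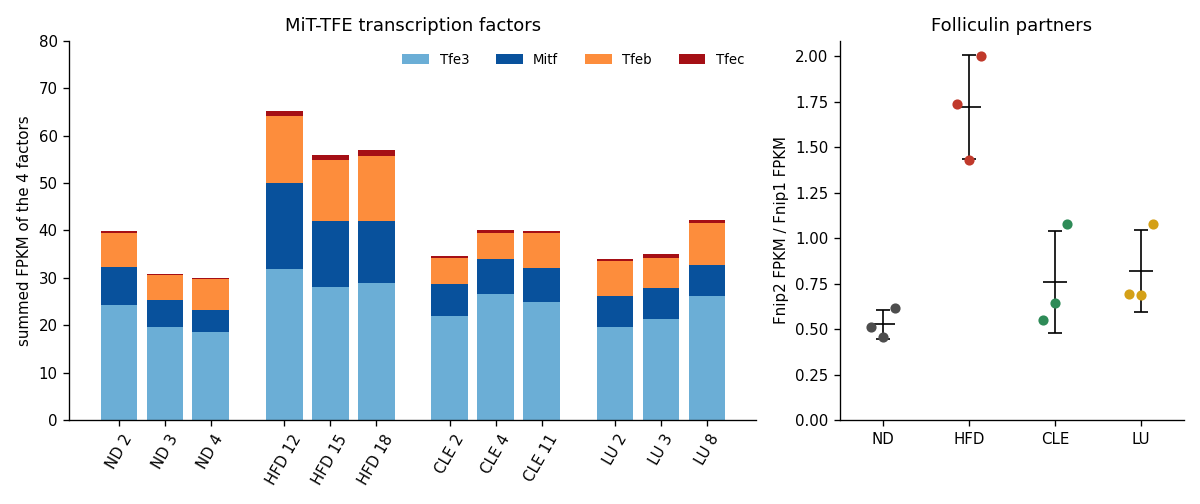
Left, the summed FPKM of the 4 MiT-TFE transcription factors in each mouse, stacked by gene. Right, the ratio of Fnip2 to Fnip1 FPKM per mouse with group mean and SD. The HFD stacks are the tallest, with Tfe3 at 49.0% to 51.0% of each, and the Fnip2 to Fnip1 ratio is at least 1.43 in the HFD mice and at most 1.08 in the others.

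Of the folliculin complex, Fnip2 was called in each comparison with HFD and Flcn, by its gene sum, in none. Fnip2 (chr3:79455974-79567796, minus strand) measured 5.50, 4.48 and 5.39 FPKM in ND, 27.98, 18.58 and 25.98 in HFD, 5.75, 6.47 and 10.06 in CLE, and 7.98, 7.22 and 11.08 in LU. The lowest HFD mouse was above the highest mouse of the other groups by a wide margin, and CLE mouse 11 and LU mouse 8 were the highest of their groups. Its log2 fold change was 2.02 (SE 0.21, limma adjusted p = 1.4e-05) in HFD against ND, which placed it 269th from the top of 12775 genes. It fell by 1.59 on the log2 scale (SE 0.21, limma adjusted p = 0.00018) in CLE against HFD, the 212th lowest, and by 1.37 (SE 0.21, limma adjusted p = 0.00085) in LU against HFD, the 177th lowest.

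The Fnip2 reads were spread over 9 groups of transcript starts. Transcripts from the full-length start, the one in the promoter window shown, held 14.2% to 40.2% of the Fnip2 FPKM, with means of 1.01 FPKM in ND, 4.97 in HFD, 2.51 in CLE and 2.73 in LU. Non-coding transcripts, mostly 1 with a retained intron, held 10.5% to 39.9%. That retained-intron transcript had means of 0.701 FPKM in ND, 6.40 in HFD, 1.65 in CLE and 2.14 in LU. Of the 9 groups of starts, 7 had their highest mean in HFD, while the start at 79493731 on chromosome 3 was at 0.685 FPKM in ND and 0.599 in HFD, and the one at 79515252 was at 0 in ND, 0.0469 in HFD and 0.12 in CLE.

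Fnip1 (chr11:54438199-54518235, plus strand), the paralog of Fnip2, measured 10.69, 9.79 and 8.75 FPKM in ND, 16.07, 13.02 and 12.99 in HFD, 10.42, 10.01 and 9.30 in CLE, and 11.45, 10.51 and 10.26 in LU. HFD was above all other mice, but its log2 fold change of 0.48 against ND (SE 0.10, limma adjusted p = 0.0023) was under the fold threshold, and it turned to -0.33 (limma adjusted p = 0.058) when transcripts assembled with a new splice junction were left out. One such transcript rose from a mean of 1.72 FPKM in ND to 7.49 in HFD, while the annotated transcript was at 6.05 in ND and 4.60 in HFD. The cause of this turn was not tested. CLE against HFD was -0.46 (SE 0.10, limma adjusted p = 0.0054) and LU against HFD -0.35 (SE 0.10, limma adjusted p = 0.026) for the summed gene, and the former turned to 0.04 without those transcripts.

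Flcn (chr11:59791408-59810016, minus strand) encodes folliculin, a tumor suppressor. It measured 36.69, 24.34 and 25.36 FPKM in ND, 28.61, 24.79 and 26.32 in HFD, 20.68, 25.51 and 27.67 in CLE, and 25.02, 26.75 and 27.48 in LU. All groups overlapped, and ND mouse 2 was the highest. HFD against ND was -0.09 on the log2 scale (95% interval -0.42 to 0.24, limma adjusted p = 0.64), CLE against HFD -0.11 (-0.44 to 0.21, limma adjusted p = 0.59) and LU against HFD -0.01 (-0.33 to 0.32, limma adjusted p = 0.98). With the most abundant transcript in place of the gene sum, Flcn was called lower in HFD than in ND, at -0.62 (SE 0.16, limma adjusted p = 0.00883). The signs of the values changed with the setting, and no direction is given for Flcn.

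The balance of the 2 folliculin partners was different in HFD. Fnip2 was 0.529 ± 0.080 times Fnip1 in ND and 1.72 ± 0.29 times Fnip1 in HFD, with CLE at 0.760 ± 0.282 and LU at 0.821 ± 0.224 (SD, n = 3 each). Every HFD mouse was at 1.43 or more, and the highest of the other mice was at 1.08.

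Rragd (chr4:32983037-33022180, plus strand), known as a gene that MiT-TFE factors themselves induce, was near the limit of detection. It measured 0.33, 0.10 and 0.14 FPKM in ND, 1.16, 0.52 and 0.67 in HFD, 0.41, 0.17 and 0.21 in CLE, and 0.17, 0.21 and 0.35 in LU. The HFD mice were above all others, for which the exact two-sided permutation test gave p = 0.1 in each comparison with HFD, the smallest value that 3 against 3 mice allow. In the fit without a filter, over 19241 genes, its log2 fold change was 0.58 (SE 0.13, limma adjusted p = 0.0079) in HFD against ND, -0.48 (SE 0.13, limma adjusted p = 0.028) in CLE against HFD and -0.51 (SE 0.13, limma adjusted p = 0.029) in LU against HFD. None of these passed a fold of 1.5 on the log2(FPKM + 1) scale, which shrinks changes of scarce genes, while the ratio of the mean FPKM was 4.2 in HFD against ND, 0.34 in CLE against HFD and 0.311 in LU against HFD. Its close relative Rragc, which encodes RagC, was far more abundant, at 58.8 ± 5.4 FPKM in ND and 77.5 ± 4.8 in HFD.

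The counts that follow leave out Tfec, whose lack of overlap with HFD was set by the filter, and cover the other 6 genes tested. Of these, 5 had all HFD mice above all ND mice, where 30.2% of all genes tested did. The same 5 passed an adjusted p under 0.05 in limma without the fold threshold, where 50.5% of all genes did in either direction. Tfe3 and Fnip1 did not pass it under every alternative run. In both supplement groups Mitf, Tfeb and Fnip2 were called lower than in HFD, 3 of the 6 genes, and none was called higher. With the most abundant transcript in place of the gene sum, Mitf was no longer called, at -0.37 in CLE (limma adjusted p = 0.38) and -0.48 in LU (limma adjusted p = 0.27), nor was Tfeb in LU, at -0.51 (limma adjusted p = 0.0785). The background was 10.1% of all genes called lower and 6.33% called higher in CLE (16.5% in either direction), and 7.64% called lower and 4.81% called higher in LU (12.4% in either direction). By adjusted p alone, 4 of the 6 passed in CLE against HFD, where 33.6% of all genes did, and 5 of the 6 in LU against HFD, where 26.8% did. All CLE mice were below all HFD mice for 5 of the 6 genes, where 26.2% of all genes were, and all LU mice for 5 of the 6, where 22.1% were. The comparisons of CLE and of LU with HFD share the same 3 HFD mice, so they are not independent of each other or of HFD against ND. The median log2 fold change of all genes tested was -0.02, 0.01 and 0.03 in the 3 comparisons.

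**Figure D3:**
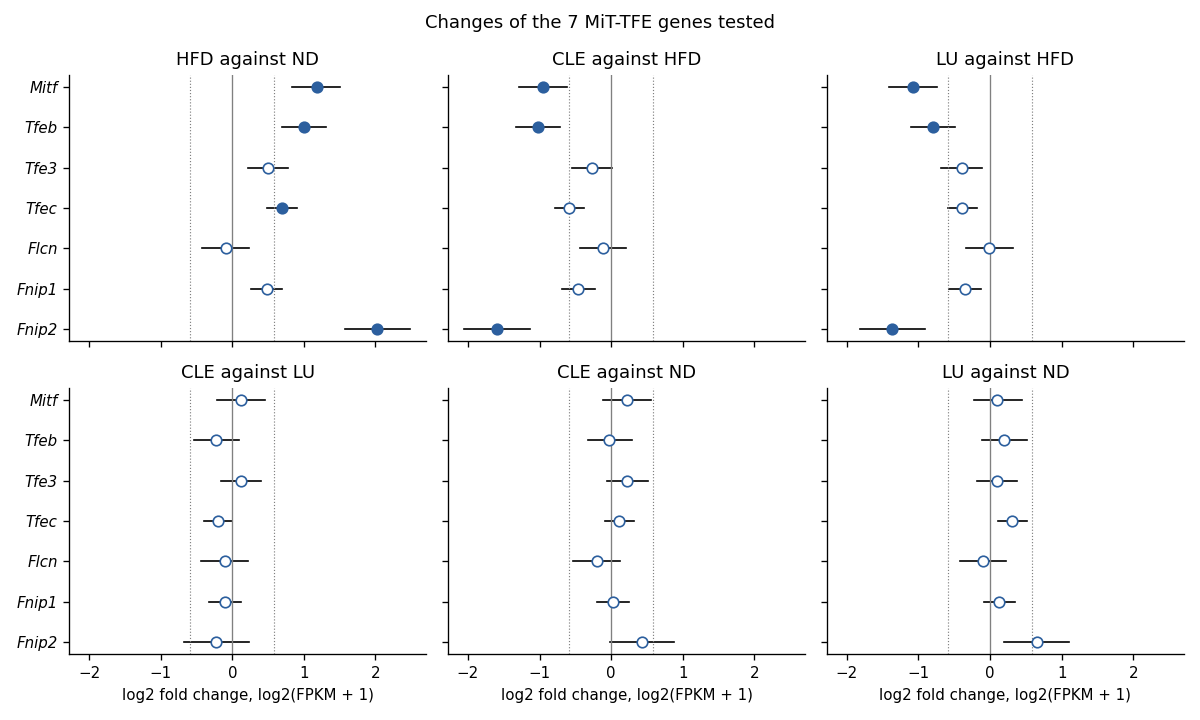
Log2 fold changes on the log2(FPKM + 1) scale (horizontal axes) of the 7 genes tested in 6 comparisons, with 95% limma intervals; filled points passed the adjusted p and the fold of 1.5, and dotted lines mark that fold. Filled points lie to the right in HFD against ND (4 genes, Tfec included) and to the left in CLE and LU against HFD (3 genes each), and no point is filled in the lower row.

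The supplements were then compared with each other. None of the 7 genes was called between CLE and LU, and 0 were at an unadjusted p under 0.05 in limma. Of all genes tested, 0.00783% were called and 5.26% were at an unadjusted p under 0.05. The doses differed, with 1.5% extract against 0.003% luteolin. The largest differences were -0.23 for Fnip2 (95% interval -0.68 to 0.23, limma adjusted p = 0.92) and -0.23 for Tfeb (-0.54 to 0.09, limma adjusted p = 0.89) on the log2 scale. The Tfec mice of LU were all above those of CLE, with a difference of -0.20 (-0.40 to 0.00, limma adjusted p = 0.89), and the Mitf mice of CLE were all above those of LU, with a difference of 0.12 (-0.22 to 0.45, limma adjusted p = 0.94). Groups without overlap were found for 9.03% of all genes in this comparison. The interval for Fnip2 still holds changes past a fold of 1.5, so a difference of that size is not excluded with 3 mice per group.

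The supplemented mice on the high-fat diet were also compared with ND. In CLE against ND none of the 7 genes was called and 0 were at an unadjusted p under 0.05 in limma, against 2.91% of all genes called (2.06% higher in CLE) and 23.3% at an unadjusted p under 0.05. Fnip2 was 0.43 higher on the log2 scale (95% interval -0.02 to 0.88, limma adjusted p = 0.24), with no overlap between the groups, as 13.2% of all genes showed with CLE higher. In LU against ND none was called, against 6.59% of all genes (4.97% higher in LU), while 2 genes were at an unadjusted p under 0.05 in limma, against 27.7% of all genes. These were Fnip2, with a log2 fold change of 0.66 (0.20 to 1.11, limma adjusted p = 0.059), and Tfec, with 0.31 (0.11 to 0.51, limma adjusted p = 0.049), which passed by adjusted p alone (as 12.8% of all genes did) and was below the fold threshold. The groups did not overlap for these 2 genes, nor for 18.5% of all genes with LU higher. Mitf was at 0.22 (-0.12 to 0.56) in CLE against ND and 0.10 (-0.23 to 0.44) in LU against ND, and Tfeb at -0.02 (-0.33 to 0.29) and 0.20 (-0.11 to 0.51). The summed macrophage markers of LU, 921 to 1060 FPKM, were also above those of ND, 345 to 511 FPKM, with no overlap. For the genes tested other than Fnip2 and Tfec, Mitf and Tfeb among them, the ranges of LU and ND overlapped. The part of macrophages in these values was not tested.

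**Figure D4:**
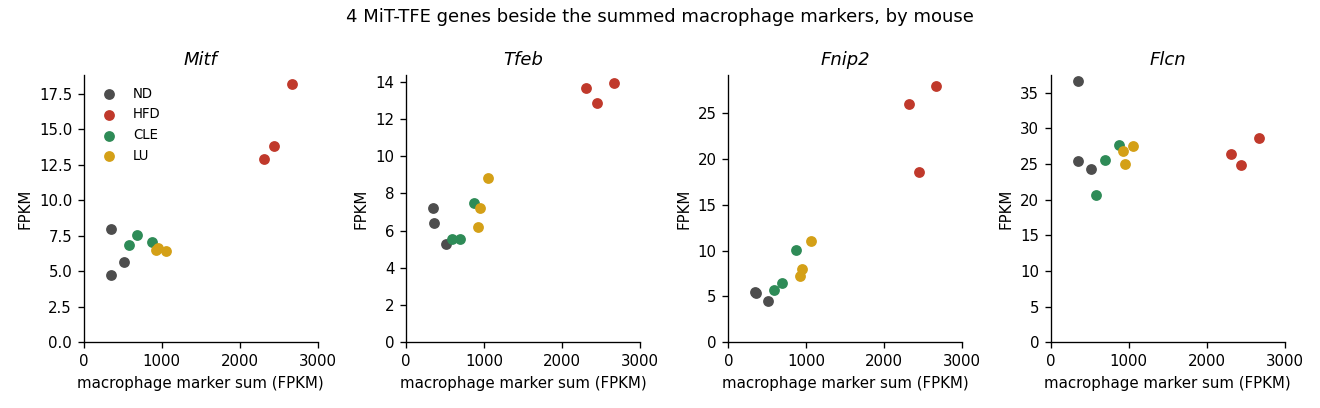
FPKM of Mitf, Tfeb, Fnip2 and Flcn (vertical axes) against the summed FPKM of 10 macrophage markers (horizontal axes), 1 point per mouse and coloured by group. The HFD mice stand at 2310 to 2670 FPKM of macrophage markers and high in all panels but Flcn. ND, CLE and LU spread from 345 to 1060 FPKM of markers, with Mitf between 4.76 and 7.95 FPKM and Fnip2 between 4.48 and 11.08 FPKM.

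Cell type markers moved with the genes above. Of the 10 macrophage markers, 9 were called higher in HFD than in ND, where 14.9% of all genes were. Lower levels than in HFD were called for 9 in CLE and 9 in LU, where 10.1% and 7.64% of all genes were. Lyz2, the macrophage lysozyme, had means of 289 FPKM in ND, 1670 in HFD, 517 in CLE and 717 in LU, and Cd68, a lysosomal membrane protein of macrophages, 14.9, 266, 46.1 and 64.8. Of the 10 adipocyte markers, 7 were called lower and 1 higher in HFD than in ND, where 10.8% and 14.9% of all genes were. In CLE against HFD 7 of them were called higher and 1 lower, where 6.33% and 10.1% of all genes were. In LU against HFD 3 were called higher and 1 lower, where 4.81% and 7.64% of all genes were. The part of these cell types in the differences of Mitf, Tfeb, Tfec and Fnip2 was not tested.

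Mast cells also rely on MITF. Of the 7 mast cell markers, 5 passed the filter. Of these, 4 were called higher and 1, Kit, lower in HFD than in ND, where 14.9% and 10.8% of all genes were. Kit, the stem cell factor receptor, had means of 7.01 FPKM in ND, 3.32 in HFD, 5.00 in CLE and 4.95 in LU. In both CLE and LU, 4 of the 5 were called lower than in HFD, where 10.1% and 7.64% of all genes were. The 7 markers together summed to 13.9 to 21.8 FPKM in HFD, 9.58 to 15.3 in ND, 7.15 to 10.5 in CLE and 6.05 to 12.8 in LU, and their part in the Mitf values was not tested.

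The machinery upstream of the factors was examined next. Of 8 Rag GTPase and Ragulator genes tested, which anchor mTORC1 to the lysosome, 0 were called in HFD against ND in limma. Of all genes, 25.6% were called in either direction. By adjusted p under 0.05 alone 4 of the 8 passed, near the 50.5% of all genes that did. The median log2 fold change of the 8 was 0.18. Lamtor1, the Ragulator subunit that tethers the complex to the membrane, was called lower in CLE than in HFD at -0.59 (SE 0.11, limma adjusted p = 0.0023), and none was called in LU against HFD. Of 9 genes of mTORC1 and of its brake, the TSC complex, 1 was called higher in HFD than in ND, where 14.9% of all genes were. This was Rptor, which encodes the subunit that binds substrates, at 0.59 (SE 0.09, limma adjusted p = 0.00024). None of the 9 was called in CLE or LU against HFD, where 16.5% and 12.4% of all genes were in either direction.

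Amino acid sensing lies upstream of the Rags. Of 15 genes of the GATOR and KICSTOR complexes and the amino acid sensors, 3 were called higher and 2 lower in HFD than in ND, near the 14.9% and 10.8% of all genes called in these directions, with a median log2 fold change of -0.10. Among the sestrins, which are part of this list, Sesn3 rose from 6.59 ± 1.33 to 18.8 ± 0.7 FPKM (SD, n = 3 each). Its log2 fold change was 1.40 (SE 0.13, limma adjusted p = 5.9e-06), and Sesn1 rose by 0.77. Sesn2, a stress-induced member, fell by 1.27 on the log2 scale (SE 0.22, limma adjusted p = 0.00066), from 49.2 ± 15.7 to 19.2 ± 2.5 FPKM. Depdc5, of GATOR, rose by 0.94, and Castor1, the arginine sensor, fell by 0.61. In CLE against HFD, Sesn2 (1.11) and Castor1 (0.65) were called higher and Sesn3 (-0.66) and Depdc5 (-0.61) lower. The shares of all genes were 6.33% higher and 10.1% lower. In LU against HFD, Sesn2 (0.90) and Castor1 (0.72) were called higher, where 4.81% of all genes were.

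Of 15 genes for calcineurin, TRPML1, kinases, phosphoserine-binding adaptors and nuclear export, 2 were called higher in HFD than in ND, near the 14.9% of all genes. These were Ppp3ca, a catalytic subunit of calcineurin, at 0.70 (SE 0.12, limma adjusted p = 0.00059), and Ywhah, an adaptor of the family that retains phosphorylated TFEB in the cytoplasm, at 0.72 (SE 0.10, limma adjusted p = 0.00014). Ywhah was also called lower in CLE than in HFD, at -0.73 (SE 0.10, limma adjusted p = 0.00029), and none of the 15 was called in LU against HFD. Mcoln1, which encodes TRPML1, had a log2 fold change of 0.11 (SE 0.12, limma adjusted p = 0.46) in HFD against ND, with a mean of 21.7 ± 3.1 FPKM in HFD (SD, n = 3).

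Most lysosomal genes of the CLEAR network were called higher in HFD. Of 34 such genes, 23 were called higher and 0 lower in HFD than in ND in limma, where 14.9% of all genes were called higher. Their median log2 fold change was 0.93, against -0.02 for all genes tested. Lower levels than in HFD were called for 20 of them in CLE, where 10.1% of all genes were called lower, and for 17 in LU, where 7.64% were, and higher levels for 0 in either, with median log2 fold changes of -0.68 and -0.57. The largest rises were those of Ctss, a cathepsin of antigen-presenting cells, from 29.7 ± 5.7 to 436 ± 61 FPKM (log2 fold change 3.84, SE 0.31, limma adjusted p = 2.9e-06), Gla, alpha-galactosidase A, from 2.10 ± 0.22 to 14.6 ± 2.2 FPKM (2.33), and Gusb, beta-glucuronidase, from 31.1 ± 6.7 to 142 ± 12 FPKM (2.18). The same 3 genes had the largest falls in both supplement groups, with Ctss at -2.31 in CLE and -1.65 in LU, Gla at -1.86 and -1.51, and Gusb at -1.46 and -1.23. Macrophages are rich in these enzymes too, and the macrophage markers moved in the same direction in each comparison, with their part not tested.

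Autophagy genes are a further group of TFEB targets. Of 16 tested, 2 were called higher in HFD than in ND, near the 14.9% of all genes, with a median log2 fold change of 0.06. These were Vps18, of the vesicle-tethering HOPS complex, at 0.85 (SE 0.11, limma adjusted p = 5.8e-05), and Uvrag, a partner of beclin, at 0.73 (SE 0.12, limma adjusted p = 0.00034). Vps18 was the 1 gene called lower in CLE than in HFD, at -0.68 (SE 0.11, limma adjusted p = 0.00057), and none was called in LU against HFD. Sqstm1, the cargo receptor p62, was at 185 ± 17 FPKM in ND and 203 ± 4 in HFD (log2 fold change 0.14, limma adjusted p = 0.18).

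Known MiT-TFE targets of osteoclasts and macrophages showed the widest range. Of 7 tested, 6 were called higher and 1 lower in HFD than in ND, where 14.9% and 10.8% of all genes were. Lower levels than in HFD were called for 5 in CLE and 5 in LU, where 10.1% and 7.64% of all genes were, with none higher. The macrophage markers moved in the same direction as the targets called higher in HFD, and their part was not tested. Gpnmb, a lysosomal glycoprotein induced by MITF, rose from 4.12 ± 1.24 to 471 ± 65 FPKM (log2 fold change 6.54, SE 0.60, limma adjusted p = 6.6e-06). Trem2, a lipid receptor of macrophages, rose from 1.52 ± 0.35 to 180 ± 26 FPKM (6.16), and Atp6v0d2, a proton pump subunit of osteoclasts and macrophages, from 0.684 ± 0.013 to 113 ± 20 FPKM (6.07). Acp5, tartrate-resistant acid phosphatase, a classical osteoclast target, was the exception and fell by 0.68 on the log2 scale (SE 0.08, limma adjusted p = 3.5e-05), from 196 ± 6 to 122 ± 6 FPKM. Acp5 was at 165 ± 5 FPKM in CLE and 162 ± 12 in LU, both between ND and HFD and below the fold threshold against HFD. Clcn7 and Ostm1, which encode the chloride transporter of the lysosome and its partner, belong to this list and to the CLEAR list, as Mcoln1 belongs to the CLEAR and the calcineurin lists.

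Some of these targets were also called higher in the supplement groups than in ND. In LU against ND 9 of the 34 CLEAR genes were called higher, where 4.97% of all genes were, with Ctss at 2.19 (SE 0.31, limma adjusted p = 0.0019), and in CLE against ND, where 2.06% of all genes were called higher, 1 was, Ctss, at 1.53 (SE 0.31, limma adjusted p = 0.022). Gpnmb was at 59.9 ± 66.9 FPKM in CLE and 73.6 ± 32.0 in LU (SD, n = 3 each), so its spread in CLE was as large as its mean. It was called higher than in ND in both, with log2 fold changes of 2.99 (SE 0.60, limma adjusted p = 0.021) and 3.81 (SE 0.60, limma adjusted p = 0.003). None of the CLEAR or osteoclast and macrophage targets was called between CLE and LU in limma.

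Metabolic genes tied to TFEB were also measured. Of 8 such genes, 2 were called higher in HFD than in ND, where 14.9% of all genes were, with a median log2 fold change of 0.12. These were Gdf15, a stress hormone, from 1.52 ± 0.54 to 4.67 ± 0.18 FPKM (log2 fold change 1.19, SE 0.26, limma adjusted p = 0.0027), and Cpt1b, which admits fatty acids to mitochondria, from 0.871 ± 0.175 to 2.99 ± 0.70 FPKM (1.08). Both were called lower in CLE than in HFD, where 10.1% of all genes were, Gdf15 at -1.13 and Cpt1b at -1.14. In LU against HFD 1 was called, Fgf21, a fasting hormone, higher at 0.65 (SE 0.17, limma adjusted p = 0.017), with means of 1.95 ± 0.49 FPKM in LU and 0.872 ± 0.156 in HFD. Ppargc1a, the mitochondrial coactivator that TFEB can induce, was at 2.11 ± 0.77 FPKM in ND and 1.30 ± 0.51 in HFD (limma adjusted p = 0.31).

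**Figure D5:**
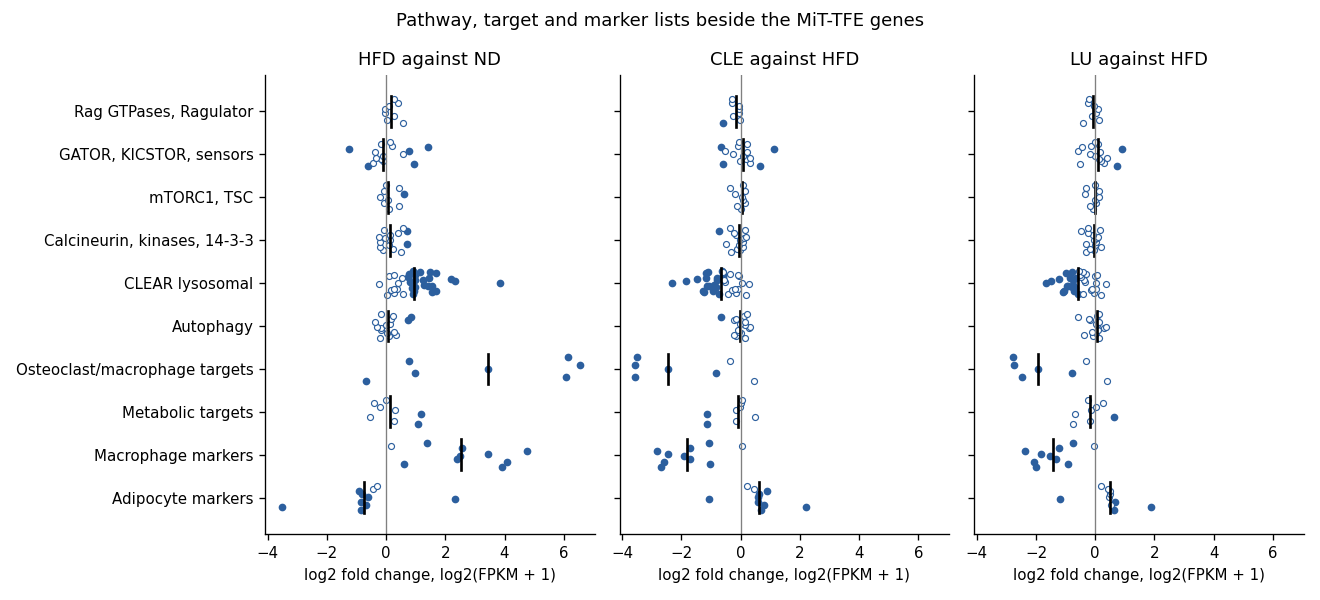
Log2 fold changes on the log2(FPKM + 1) scale (horizontal axes) of each gene tested in 8 pathway and target lists and 2 marker lists; filled points were called and black lines are list medians. The CLEAR lysosomal list (medians 0.93, -0.68 and -0.57) and the macrophage markers (2.52, -1.80 and -1.44) lie to 1 side in each comparison, while the mTORC1 and autophagy lists lie near 0.

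The genes whose pattern over the 12 libraries was most like that of each member were found by the root mean square difference of their centred log2 values. For Mitf these were Lrp12 (0.110), Tgfbr1, the type I receptor of TGF-beta (0.114), and Myo5a, the motor that carries pigment and secretory granules (0.167). For Tfeb they were Rnf149 (0.0949), Pdxk, pyridoxal kinase (0.108), and Rnh1, the ribonuclease inhibitor (0.108). Fnip2 was closest to 5031439G07Rik (0.110), Ckb, brain creatine kinase (0.115), and Efhd2 (0.131). Each of these 9 genes was highest in HFD, which follows from their choice by likeness to members that were highest there. Tgfbr1 was at means of 11.9 FPKM in ND, 28.5 in HFD, 13.4 in CLE and 13.9 in LU, and Ckb at 27.4, 99.1, 33.9 and 39.3.

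The remaining members had neighbours of smaller change. Tfe3 was closest to Arid3a (0.0876), Slc4a2 (0.101) and Dnaaf3 (0.106), and Tfec to Tmem71 (0.0652), Sat1 (0.0727) and Inip (0.0818). Flcn was closest to Atf4, a stress transcription factor (0.0744), Secisbp2 (0.0799) and Zfand5 (0.0853). Fnip1 was closest to Rcor1 (0.0626), Lamp2, a lysosomal membrane protein (0.0711), and Ddr2 (0.0765), and Rragd to Fbxo32 (0.112), Fnip1 (0.122) and Mbnl1 (0.122). Among the members, Tfeb stood 126th in likeness to Mitf, with a difference of 0.239.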

How the data were processed

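Per the labels and the methods, eWAT mRNA of 12 mice was sequenced as paired-end reads of 100 bases from TruSeq libraries. The submitters' processing notes name CASAVA 1.8.2, Bowtie2 2.2.3, TopHat2 2.0.12 and Cufflinks 2.2.1, and the genome build is not given in the sources used here. The authors deposited FPKM values for 152210 annotated and assembled transcripts, already scaled to transcript length and library size. Low FPKM values did not fall on whole reads (15.2% to 19.5% within a tolerance of 0.05, where chance gives 10%), so depth is unknown and no count test was run. Among the 15 FPKM columns are 3 that could be tied to no sample, which were left out, and the columns of the authors' own comparisons (calls and fold changes) were not used. The CLE columns carry another abbreviation and were mapped through the diet in the labels. The column of ND mouse 4 spells the group differently and was assigned by inference, since it carries that mouse's number and letter R and the authors' own comparison header lists it under ND.

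Transcripts were matched to GENCODE M21 (GRCm38), which held 77000 of the 78786 known transcripts, 87.6% of them with identical ends. Annotated transcripts and assembled ones that match or share a splice junction with one (class code = or j) were summed per gene. No other gene shares exon bases with a member. Genes reaching 1 FPKM in 3 or more libraries, 12775 in all, were tested on the scale log2(FPKM + 1) with limma (version 3.58.1, R 4.3.3), with all 12 libraries in 1 fit, no covariate, and BH adjustment within each comparison. The libraries come from separate mice. Mice of different groups that share a number were not treated as pairs. Their deviations from the group means correlated at -0.099 to 0.189, which cannot show whether they shared anything beyond the number. On simulated data for HFD against ND over 12775 genes, 166 of 200 genes changed by 1 on the log2 scale were recovered with 8 others called. Of 200 changed by 2, 199 were recovered with 5 others called. The simulated noise was normal and independent between genes, and only those 200 genes were changed. In the real comparison 50.5% of all genes passed by adjusted p alone, so these rates need not hold there.

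The members and the lists were chosen with earlier results of these data known, so no p-value is adjusted over a list and no list was tested as a set. All 8 members are named in every comparison; of each pathway or target list, up to 3 called genes with the largest rise and up to 3 with the largest fall; of marker lists, counts, sums and the most abundant genes; and 3 genes of most similar pattern per member. Genes that this rule does not reach, such as Kit, Mcoln1, Sqstm1, Ppargc1a, Rragc, Cldn5 and Col1a1, were named after their values were seen. Promoter sequences are RefSeq's on GRCm38.p6, matched for all 8 members.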

Additional observations from a re-analysis of the deposited data

How the results depend on the processing

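The calls of Mitf, Tfeb and Fnip2 in HFD against ND held under every alternative run, of which the one without the libraries with the letter R leaves 1 ND mouse, mouse 2, assumed to vary like the other groups. With 1 library left out at a time, the number of the 7 genes called, Tfec included, was 4 to 5 in HFD against ND (Tfe3 joined at 0.61 without ND mouse 2), 3 to 4 in CLE against HFD (Tfec joined without HFD mouse 12, HFD mouse 15 or CLE mouse 4, at -0.61 to -0.63), 3 to 3 in LU against HFD, 0 to 0 in CLE against LU and in CLE against ND, and 0 to 1 in LU against ND (Fnip2, without CLE mouse 11). With the mouse number as a block, the counts were 4, 3, 3, 0, 0 and 0 in the same order, and the block changed no call.

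By adjusted p alone, 5 of the 7 genes passed in CLE against HFD and 6 in LU against HFD, where 33.6% and 26.8% of all genes did. Both counts include Tfec, and without it they are 4 and 5 of 6. In LU against ND 1 passed, Tfec, where 12.8% of all genes did. In LU against ND, 1 gene was also called with a pseudocount of 0.1 (Tfec), with only the 2 groups compared (Fnip2) and without class code j (Fnip2). With the most abundant transcript in place of the gene sum, 1 gene (Fnip2) was called in LU against HFD, while Mitf was at -0.37 in CLE and -0.48 in LU against HFD and Tfeb at -0.51 in LU, none of them called. With that transcript Flcn was called lower in HFD than in ND, at -0.62 (limma adjusted p = 0.00883). Tfec in HFD against ND was below the fold threshold with quantile normalization (0.51) and without the libraries with the letter R (0.58). Its CLE against HFD value passed with a pseudocount of 0.1 (-1.21), with median ratios (-0.59) and without those libraries (-0.63). In limma, fits with a mean of 5 FPKM as filter leave out Tfec.

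Direction turned only for values that were not called. With the most abundant transcript, Fnip1 was at -0.33 in HFD against ND, 0.04 in CLE against HFD, 0.08 in CLE against LU, -0.29 in CLE against ND and -0.37 in LU against ND, and all of these were the same without class code j, which leaves 1 annotated transcript to carry the gene. Flcn was at 0.45, 0.27 and 0.19 with the most abundant transcript in CLE and LU against HFD and in CLE against LU, and at 0.33 and 0.15 without class code j in HFD and LU against ND. In LU against HFD, Flcn was at 0.01 with quantile normalization, 0.06 with the letter R as covariate and 0.03 without those libraries. With the most abundant transcript Tfe3 was at 0.0018 in CLE against HFD, 0.0031 in LU against HFD and -0.0013 in CLE against LU, and Tfeb at 0.07 in CLE against ND. Without class code j, Mitf was at -0.01 and -0.02 in CLE and LU against ND. Without the libraries with the letter R, where ND is mouse 2 alone, the highest ND mouse for these genes, CLE against ND was -0.17 for Mitf, -0.05 for Tfe3, -0.04 for Tfec and -0.11 for Fnip1, LU against ND was -0.26 for Mitf, -0.03 for Tfe3 and -0.04 for Fnip1, and CLE against LU was -0.02 for Tfe3. Quantile normalization gave Tfec -0.06 in CLE against ND. The cause of these turns was not tested.

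With 1 library left out at a time, values that crossed 0 ranged from -0.20 to 0.09 for Flcn in HFD against ND, -0.20 to 0.0021 in CLE against HFD, -0.05 to 0.05 in LU against HFD, -0.19 to 0.01 in CLE against LU and -0.20 to 0.08 in LU against ND. In CLE against ND they ranged from -0.15 to 0.07 for Tfeb and -0.04 to 0.09 for Fnip1, and in LU against ND from -0.04 to 0.28 for Mitf and -0.01 to 0.21 for Tfe3. Read depth is unknown, so counting error at the low levels of Tfec and Rragd is unknown.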

Other observations

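Markers of other cell types were measured beside the MiT-TFE genes. Of 5 endothelial markers, 1 was called lower in HFD than in ND (limma), where 10.8% of all genes were. This was Cldn5, a tight junction protein, at 152 ± 35 FPKM in ND and 68.5 ± 15.2 in HFD (SD, n = 3 each). Cldn5 was called higher than in HFD in both CLE and LU, at log2 fold changes of 1.06 (SE 0.20, limma adjusted p = 0.0017) and 1.03 (SE 0.20, limma adjusted p = 0.0031). Of 6 fibroblast and progenitor markers, 1 was called higher and 1 lower in HFD than in ND, where 14.9% and 10.8% of all genes were. The one called higher was Col1a1, a chain of type I collagen, which rose from 42.7 ± 7.8 to 188 ± 19 FPKM (log2 fold change 2.12, SE 0.17, limma adjusted p = 2.2e-06) and was at 67.2 ± 13.6 in CLE and 95.8 ± 12.9 in LU. Of 5 mesothelial markers, 4 were called lower in HFD than in ND, where 10.8% of all genes were.

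Markers of T and B lymphocytes, of skeletal muscle and of the neighbouring epididymis and testis were low. None of the 7 T and B lymphocyte markers passed the filter, and their sums were 1.76 to 6.85 FPKM over the 12 libraries. The 4 skeletal muscle markers in the table summed to at most 15.8 FPKM, in a CLE library. The 7 epididymis and testis markers summed to at most 5.46 FPKM, in an ND library.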
